A study of Mus musculus with 6 samples.

Results

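Respiratory complex I is described here through its nuclear-encoded genes, taken as every gene whose symbol begins with Nduf. These were 45 of the 10361 gene names measured in poly-A RNA of mouse retinal ganglion cells (RGCs), which send their axons through the optic nerve to the brain. The 45 genes are 7 core subunits, 29 accessory subunits, 8 assembly factors (named Ndufaf) and Ndufa4, which keeps its historical name but is a subunit of complex IV. Ndufb1 and Ndufa4l2 were not analysed here. All 45 genes averaged at least 1 FPKM over the 6 libraries, the minimum for testing, and so did 9987 genes in all.

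The 6 libraries fall into 3 groups of 2, all from wild-type mice of strain C57/6NCrl. Adult miR-1247 RGCs received AAV2 that expresses a miR-1247-5p mimic, a supplied copy of that microRNA. Adult control RGCs received AAV2 with a scrambled shRNA mimic and the label mCherry. The age of the adults is not given more closely. Each adult condition drew on 10 retinas, from which about 5000 cells were kept after capture on Thy1 antibody and sorting for mCherry. E18 RGCs, from embryos of day 18, carried no vector, and about 50000 cells were captured on Thy1 antibody without sorting. Age, vector, sorting and cell number therefore cannot be told apart between adult and E18 libraries. Nothing in the labels ties the 2 libraries of a group to different animals. The p-values therefore set a difference of group means against the spread between these libraries only, and that spread may be technical.

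Complex I, the NADH:ubiquinone oxidoreductase, is the entry point of the mitochondrial respiratory chain. Its peripheral arm reaches into the matrix, takes electrons from NADH onto a flavin and passes them along iron-sulfur clusters to ubiquinone. Its membrane arm pumps protons, and its core pumping subunits are encoded by mitochondrial DNA. The core subunits have bacterial counterparts and carry out catalysis, the accessory subunits surround and stabilise them, and the assembly factors act while the complex is built and then leave it. RGCs are known to be sensitive to complex I defects: mutations in its mitochondrial genes cause Leber hereditary optic neuropathy in people. The roles given below for single subunits are known mainly from the bovine and human complex.

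The microRNA supplied to the treated cells is shown because its seed decides which transcripts can pair with it. Mature mouse miR-1247-5p (RefSeq, chr12:110278094-110278115, minus strand, GRCm38.p6) reads as follows, with the seed, bases 2 to 8, in capitals.
mmu-miR-1247-5p: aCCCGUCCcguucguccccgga
A 3′ UTR can pair with the full seed where it holds the 7 bases GGACGGG. Of the canonical GENCODE 3′ UTRs of the 45 Nduf genes, 1 held that run (2.22%), against 320 of the 9858 tested genes that have a 3′ UTR (3.25%). Nduf 3′ UTRs are short, with a median of 198 bases against 1479.5 bases over the tested genes. The match lay in the 3′ UTR of Ndufaf3 (429 bases, the match beginning at base 134), on the minus strand of GRCm39. It is printed in capitals within the stretch at chr9:108443010-108443032.
Ndufaf3 3′ UTR: gggaagggGGACGGGaatgacta
A match is a run of letters and not a measured binding site. Ndufaf3 averaged 20.1 ± 1.18 FPKM in miR-1247 libraries and 19.6 ± 1.35 FPKM in control libraries (SD, n = 2 each), values that overlap.

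The libraries resemble each other within a group, with correlations of log2 values across genes between 0.98 and 0.985. RGC markers were present in all of them: each of the 17 on a fixed list had an entry, and their summed level was 2284 and 2262 FPKM in miR-1247, 3799 and 3733 FPKM in control, and 5946 and 5941 FPKM in E18 libraries. Amacrine markers (4 of 11 with an entry) summed to 703 and 738, 508 and 547, and 83.5 and 84.1 FPKM in the same order of groups. Müller glia and astrocyte markers (5 of 11) summed to 1825 and 1713, 1409 and 1063, and 167 and 167 FPKM. Rod markers (3 of 13) summed to 24.3 to 26.9 FPKM in miR-1247, 45.6 to 46.8 in control and 5.57 to 6.41 in E18 libraries. Of these, Sag was at 0 in both miR-1247 libraries and at most 1.08 FPKM elsewhere, so the sums are mostly Rom1 and Reep6. The defining rod gene Gnat1 had no entry, nor had any cone, endothelial or erythroid marker on the lists. A missing entry is not a measured 0. Bipolar markers (4 of 11, of which Isl1 is also on the RGC list) summed to 49.6 to 52.8, 40.0 to 48.4 and 175 to 176 FPKM. Isl1 alone averaged 10.5 FPKM in miR-1247, 16.6 in control and 164 in E18 libraries. The bipolar markers Prkca and Car8 were higher in control than at E18, and Gng13 was not called. Progenitor markers (3 of 12) summed to 240 to 251, 186 to 188 and 278 to 289 FPKM, mostly Pax6, which averaged 225, 168 and 232 FPKM. The microglial marker with an entry, 1 of 8, lay between 4.85 and 9.11 FPKM. Other lists also held members that went against their sum. In control against E18, 4 of the 17 RGC markers were higher, and Vim of the Müller glia list was lower. The marker sums thus differ between groups together with the Nduf values given below, and their part in those values was not tested. In bulk RNA, fewer cells of a type and less RNA per cell cannot be told apart.

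Taken as sums of FPKM, a unit already divided by transcript length, the accessory subunits made up most of the Nduf total. All 45 genes summed to 2891 and 2805 FPKM in miR-1247, 2833 and 2723 FPKM in control, and 2620 and 2572 FPKM in E18 libraries. Every adult library lay above both E18 libraries, although the sums differ by little. As a share of the FPKM of all genes outside the mitochondrial genome the same order held, with 0.911% and 0.885% in miR-1247, 0.865% and 0.84% in control, and 0.737% and 0.721% in E18 libraries. The accessory subunits summed to 2302 and 2232, 2240 and 2137, and 1939 and 1895 FPKM, again with every adult library above E18. Core subunits stood at nearly the same sum in every library, at 340 and 331 FPKM in miR-1247, 341 and 338 FPKM in control, and 334 and 318 FPKM in E18 libraries. The assembly factors summed to far less, at 89.4 and 97.0, 107 and 104, and 89.9 and 94.0 FPKM, with both control libraries above the other 4. These sums are given as a description, without a test.

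The accessory subunits of the 2 arms did not follow 1 pattern. The 19 membrane-arm accessory subunits summed to 1591 and 1484 FPKM in miR-1247, 1618 and 1583 FPKM in control, and 1370 and 1342 FPKM in E18 libraries, so that all adult libraries were above E18. The 9 peripheral-arm accessory subunits summed to 644 and 679 FPKM in miR-1247 libraries, against 566 and 490 FPKM in control and 531 and 524 FPKM in E18 libraries, so that here the miR-1247 libraries stood above the other 4 and control overlapped E18. Ndufa6 and Ndufa7 carried much of this gap to control. Their means were 147 and 116 FPKM in miR-1247 libraries, against 89.4 and 82.9 FPKM in control libraries. The other 7 were not called between these groups, and a sum without Ndufa6 and Ndufa7 was not made. The remaining accessory subunit, Ndufab1, the mitochondrial acyl carrier protein, sits in both arms.

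**Figure D1:**
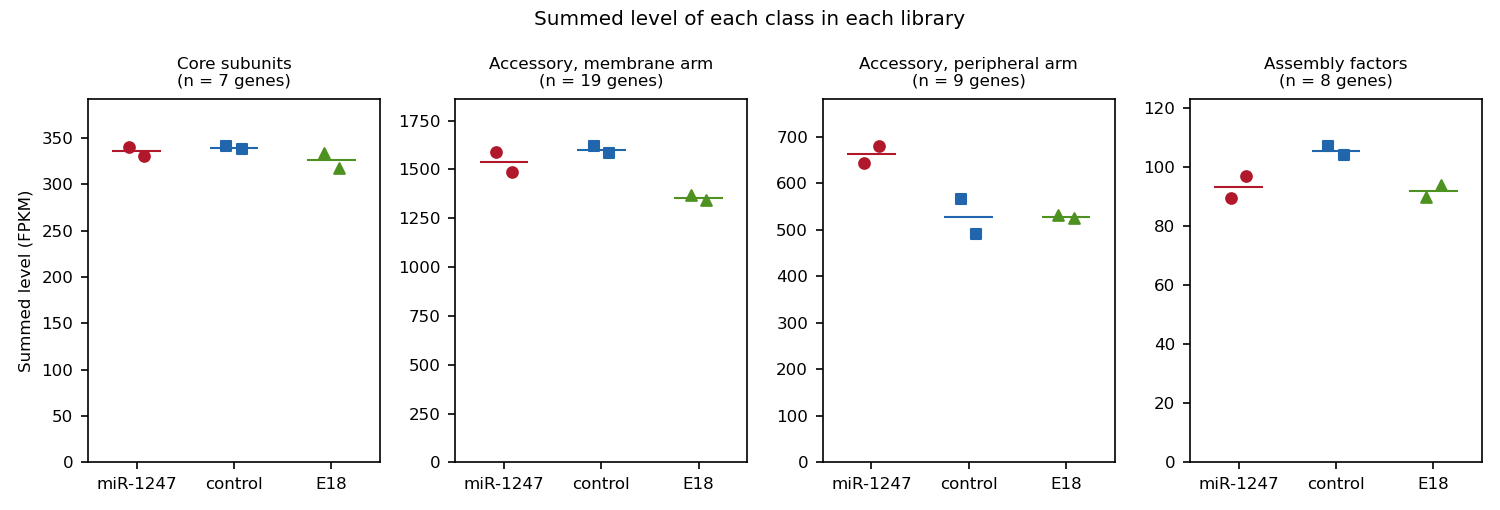
Summed level in FPKM of the 7 core subunits, 19 membrane-arm and 9 peripheral-arm accessory subunits and 8 assembly factors, with a point for each library, a line at the mean of each group, and miR-1247, control and E18 from left to right. Core sums lie between 318 and 341 FPKM in every library, membrane-arm sums are 1484 to 1618 FPKM in the adult libraries and 1342 to 1370 FPKM at E18, and peripheral-arm sums are 644 and 679 FPKM in miR-1247 libraries, above the other 4.

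Subunits of the 1 complex were far from equal in mRNA level. The highest of the 36 core and accessory subunits exceeded the lowest by 10.8- to 11.1-fold in miR-1247, 11.1- to 12.8-fold in control and 12.1- to 12.6-fold in E18 libraries. Levels lay closer together at E18 by another measure, the SD of log2 level across the 36 subunits, which was 0.882 and 0.831 in miR-1247, 0.885 and 0.865 in control, and 0.679 and 0.718 in E18 libraries. The order of the subunits also differed. Across the 36 genes, which share libraries and are not independent replicates, Spearman's rank correlation was 0.93 between miR-1247 and control means and 0.6 between control and E18 means. Ndufc2 ranked 1st in both adult groups and 4th at E18. Ndufa1 ranked 8th in miR-1247, 2nd in control and 1st at E18, and Ndufa3 ranked 31st, 36th and 13th. Ndufs5 ranked 25th in miR-1247, 28th in control and 5th at E18, whereas Ndufb4 ranked 30th, 27th and last of the 36. Assembly factors lay well below the subunits, with medians over the 8 genes of 10.9 to 14.3 FPKM in the 6 libraries, against 35.8 to 56.5 FPKM for core and 59.2 to 67.5 FPKM for accessory subunits.

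**Figure D2:**
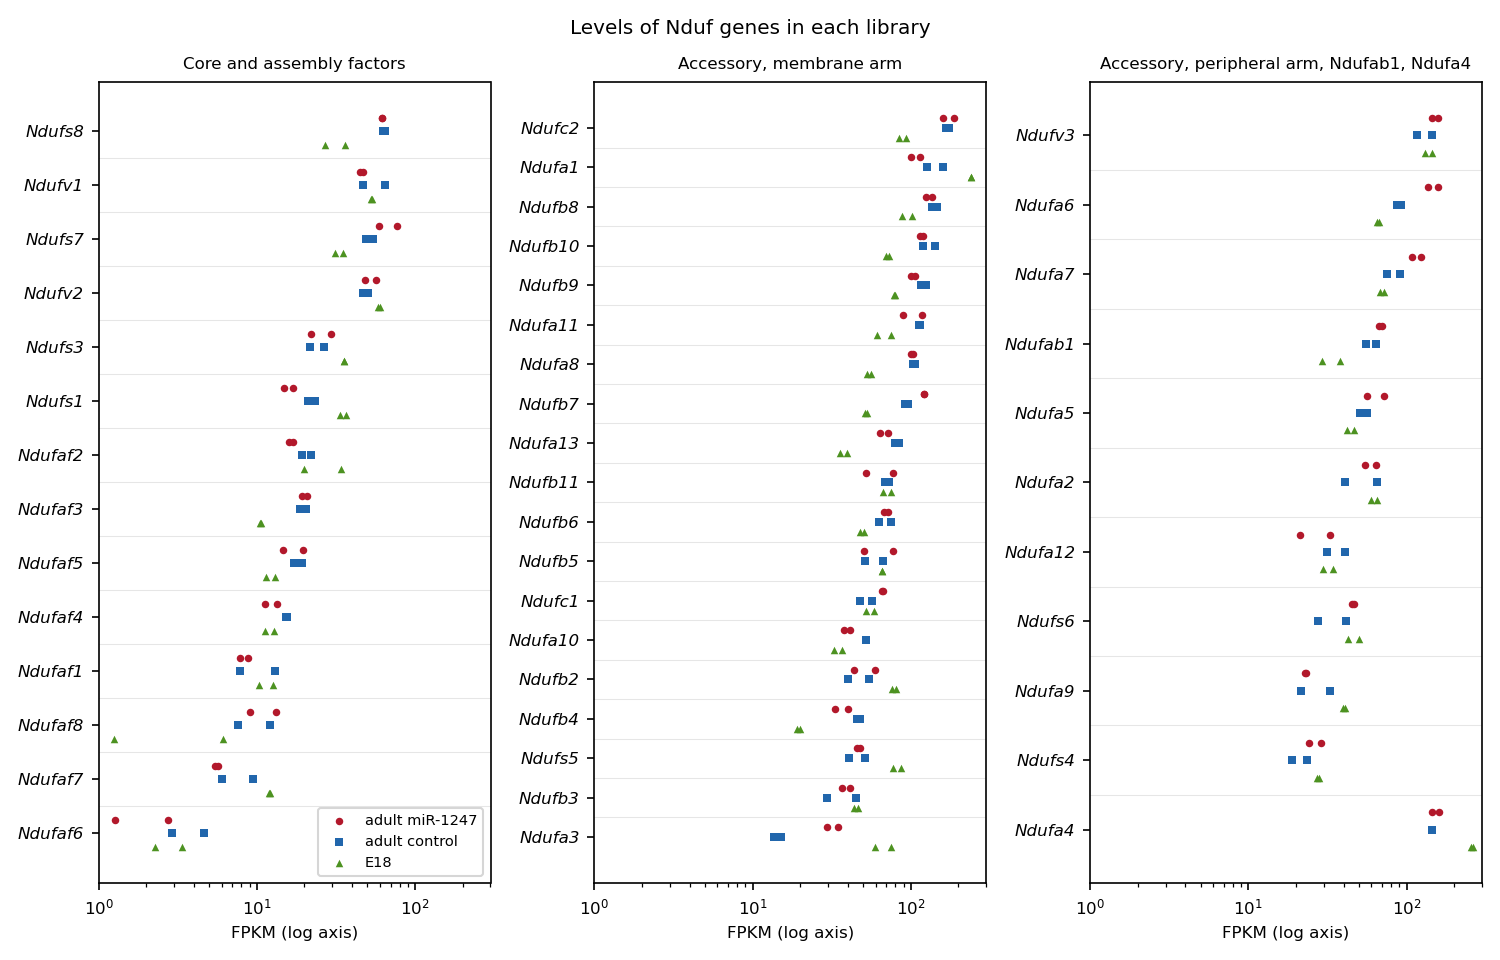
Level of the Nduf genes reported singly or by range, in FPKM on a log axis, in panels for core subunits with assembly factors, membrane-arm accessory subunits, and peripheral-arm accessory subunits with Ndufab1 and Ndufa4, where each gene has the 2 libraries of miR-1247 (circles), control (squares) and E18 (triangles) from top to bottom. The lowest single values are those of the assembly factors Ndufaf6 (1.27 FPKM in a miR-1247 library) and Ndufaf8 (1.26 FPKM in an E18 library), and the adult and E18 points stand well apart for Ndufa3, Ndufb4, Ndufs8 and Ndufa4.

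The adult control and E18 libraries were compared first, the comparison the study makes between mature and developing RGCs. In control RGCs 18 Nduf genes were higher and 11 were lower than at E18, and 16 did not pass the test. The genes that rose were mostly accessory subunits of the membrane arm, led by Ndufb4, Ndufa13 and Ndufc2, together with the core subunit Ndufs8. Those that fell were a mixture: the core subunits Ndufs1, Ndufs3 and Ndufv2, the accessory subunits Ndufa3, Ndufs5 and Ndufa1, and Ndufa4. A fold change here is the difference between group means of log2(FPKM + 1), a scale that understates the change of low genes, and the test was limma's with p-values adjusted over all 9987 genes (Benjamini-Hochberg) and called at 0.05. Over all tested genes 70.1% were called, 29.8% higher and 40.2% lower in control libraries, so the Nduf shares of 40.0% higher and 24.4% lower lean the other way. The median log2 fold change was 0.15 over the 45 genes, against -0.16 over all tested genes. Without E18 library 2 the Nduf median was 0.05, and without control library 2 it was 0.08. Both control libraries lay above both E18 libraries for 21 Nduf genes and below them for 12, against 36.5% and 49% of all tested genes (85.5% not overlapping), and for the other 12 the groups overlapped. Under median ratio scaling, which brings the median of all genes to -0.02, the Nduf median was 0.3 and the counts were 21 higher and 6 lower, so that the share of higher among called Nduf genes was 77.8% in place of 62.1%. The same share among all called genes also moved, to 50.2% in place of 42.6%. Without E18 library 2 the counts were 15 higher and 5 lower, and without E18 library 1 they were 17 and 6. Of the 29 calls, 20 held whichever of the 6 libraries was left out, 15 of those that were higher and 5 of those that were lower.

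**Figure D3:**
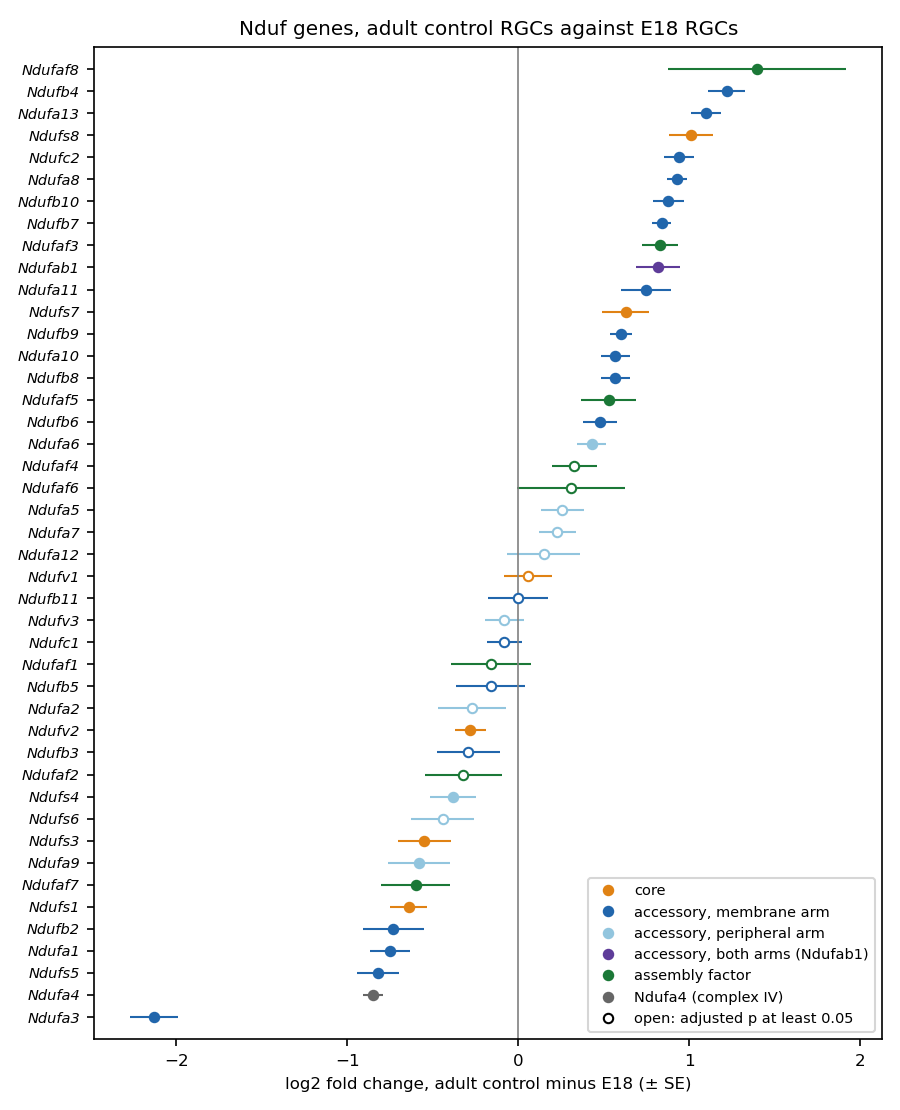
Log2 fold change of the Nduf genes, adult control minus E18 on the log2(FPKM + 1) scale, with bars of 1 standard error from limma and filled points for genes called at an adjusted p of 0.05, coloured by class and ordered by fold change. Of the 19 membrane-arm accessory subunits 11 lie right of 0, Ndufb4 (1.22) farthest, and another of them, Ndufa3 (-2.13), lies farthest left of all genes.

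The 7 core subunits divided, with 2 higher, 3 lower and 2 not called in control RGCs. Their shares of 28.6% higher and 42.9% lower were close to the 29.8% and 40.2% of all tested genes. Ndufs8, which carries iron-sulfur clusters next to the ubiquinone site, measured 61.9 and 62.2 FPKM in miR-1247, 63.2 and 64.3 FPKM in control, and 35.9 and 26.9 FPKM in E18 libraries. All 4 adult values were well above both E18 values, and the log2 fold change of control over E18 was 1.01 ± 0.128 (SE, adjusted p = 0.000448). Ndufs7, whose iron-sulfur cluster hands electrons to ubiquinone, measured 77.3 and 58.9 FPKM in miR-1247, 54.4 and 48.9 FPKM in control, and 35.0 and 31.0 FPKM in E18 libraries. It rose by 0.63 ± 0.139 in control libraries (adjusted p = 0.00599), although without E18 library 2 the adjusted p was 0.055. Its gene body overlaps that of Gamt, and reads of overlapping genes cannot be told apart where the kit does not keep the strand.

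Ndufs1, the largest core subunit and a carrier of iron-sulfur clusters in the peripheral arm (chr1:63182058-63216236, minus strand, GRCm39, GENCODE), went the other way. It measured 16.9 and 14.9 FPKM in miR-1247, 21.0 and 23.4 FPKM in control, and 36.8 and 33.6 FPKM in E18 libraries. The 3 groups did not overlap, and the control value was lower than E18 by a log2 fold change of -0.64 ± 0.109 (adjusted p = 0.00185). Its gene body overlaps that of Eef1b2. Ndufs3, a peripheral-arm subunit next to the ubiquinone site that overlaps Kbtbd4, measured 22.1 and 29.6 FPKM in miR-1247, 26.5 and 21.8 FPKM in control, and 35.8 FPKM in both E18 libraries. Every adult value lay below E18, at -0.55 ± 0.155 for control (adjusted p = 0.0164), but the call was lost without control library 2 or either E18 library, with adjusted p of 0.0838 to 0.0903. Ndufv2, the iron-sulfur partner of the NADH-binding subunit, measured 56.5 and 48.5 FPKM in miR-1247, 46.7 and 50.4 FPKM in control, and 58.5 and 60.1 FPKM in E18 libraries. Its difference was small, at -0.28 ± 0.0907 (adjusted p = 0.0282), and was not called without control library 1 or either E18 library (adjusted p of 0.0859 to 0.126).

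Ndufv1, which binds the flavin and oxidises NADH, measured 46.6 and 44.7 FPKM in miR-1247, 46.9 and 64.8 FPKM in control, and 53.4 and 52.6 FPKM in E18 libraries. The control libraries lay on both sides of E18, without a call (adjusted p = 0.734), and without control library 1 the adjusted p was 0.0258 at a log2 fold change of 0.28.

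Among the 29 accessory subunits 13 were higher, 6 lower and 10 not called in control RGCs, with a median log2 fold change of 0.23. The membrane arm gave most of these calls, with 11 of 19 higher and 4 lower and a median of 0.57. Of the 9 in the peripheral arm 1 was higher and 2 were lower, with a median of -0.08. Over the 29 genes, 44.8% were higher and 20.7% lower, beside 29.8% and 40.2% of all tested genes. The difference between the arms was not tested.

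Ndufb4, a membrane-arm accessory subunit (chr16:37467242-37474815, minus strand, GRCm39), had the largest log2 fold change of the accessory subunits that rose. It measured 40.2 and 33.0 FPKM in miR-1247, 47.7 and 45.9 FPKM in control, and 20.0 and 19.1 FPKM in E18 libraries, a log2 fold change of 1.22 ± 0.108 for control over E18 (adjusted p = 8.2e-05). At E18 it was the lowest of the 36 subunits. Ndufa13, also known as GRIM-19 and first described in cell death, measured 71.3 and 64.0 FPKM in miR-1247, 83.8 and 79.4 FPKM in control, and 39.8 and 35.6 FPKM in E18 libraries. The groups were far apart, at 1.10 ± 0.0868 (adjusted p = 4.91e-05), with the limit that the entry is shared with Yjefn3 and the gene body also overlaps Tssk6. Ndufc2, a membrane-arm subunit, measured 187 and 161 FPKM in miR-1247, 168 and 175 FPKM in control, and 93.8 and 84.1 FPKM in E18 libraries. It rose by 0.94 ± 0.0884 (adjusted p = 0.000111), and its gene overlaps no other coding gene.

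Several accessory subunits on the intermembrane-space side are small cysteine-rich proteins held together by disulfide bonds. Ndufa8, whose gene body overlaps that of Morn5, measured 101 and 103 FPKM in miR-1247, 104 and 106 FPKM in control, and 53.0 and 55.8 FPKM in E18 libraries, and rose by 0.93 ± 0.0574 (adjusted p = 1.54e-05). Ndufb10 measured 114 and 120 FPKM in miR-1247, 143 and 120 FPKM in control, and 72.6 and 69.3 FPKM in E18 libraries, and rose by 0.88 ± 0.0895 (adjusted p = 0.00016). Ndufb7 measured 121 FPKM in both miR-1247 libraries, 96.7 and 92.2 FPKM in control, and 51.3 and 53.1 FPKM in E18 libraries, and rose by 0.84 ± 0.0572 in control (adjusted p = 2.38e-05). These 3 shared the adult rise, but Ndufs5, of the same kind, did the opposite. It measured 48.0 and 45.4 FPKM in miR-1247, 40.6 and 51.4 FPKM in control, and 76.7 and 86.4 FPKM in E18 libraries, and fell by 0.82 on the log2 scale (SE 0.122, adjusted p = 0.000968).

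Ndufa3, a small membrane-arm subunit (chr7:3620342-3623326, plus strand, GRCm39), had the largest fall of any Nduf gene. It measured 34.9 and 29.6 FPKM in miR-1247, 15.1 and 13.7 FPKM in control, and 74.9 and 59.2 FPKM in E18 libraries. The 3 groups were fully separate, with control at 0.215 times the E18 mean and a log2 fold change of -2.13 ± 0.139 (adjusted p = 1.95e-05). Its gene body overlaps those of Oscar and Tfpt, and the locus of its entry also holds Prpf31. Ndufa1, an X-linked membrane-spanning subunit that the complex needs for assembly, measured 114 and 101 FPKM in miR-1247, 161 and 127 FPKM in control, and 242 and 241 FPKM in E18 libraries. It fell by 0.75 on the log2 scale in control libraries (SE 0.116, adjusted p = 0.00115), which lay far below E18.

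The remaining pair among the 5 accessory subunits with the largest called falls was less stable. Ndufb2, whose entry is shared with Adck2, measured 43.7 and 59.8 FPKM in miR-1247, 54.1 and 40.3 FPKM in control, and 76.6 and 80.2 FPKM in E18 libraries. The gene body of Ndufb2 overlaps those of Braf and Gm42420. The log2 fold change of Ndufb2, -0.73 ± 0.179 (adjusted p = 0.0094), was not called without control library 2 or either E18 library. Ndufa9, a nucleotide-binding subunit near the junction of the arms, measured 22.8 and 23.2 FPKM in miR-1247, 21.5 and 33.0 FPKM in control, and 39.9 and 40.6 FPKM in E18 libraries. Its control libraries differed from each other by much of the gap to E18, and the log2 fold change of -0.58 ± 0.181 (adjusted p = 0.0258) was lost without either E18 library (adjusted p of 0.109 to 0.12).

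Of the 15 accessory subunits not named by the rule for single genes, 5 were higher in control RGCs by log2 fold changes of 0.48 to 0.82, namely Ndufa11, Ndufab1, Ndufb6, Ndufb8 and Ndufb9. All of these except Ndufab1 have gene bodies that overlap another coding gene. Ndufs4, whose loss in mice gives a model of Leigh syndrome, was the 1 lower, at -0.38, and it lost its call without control library 1 or either E18 library (adjusted p of 0.126 to 0.188). The other 9 lay between -0.44 and 0.26 without a call. Mean levels of the 15 ran between 26.6 and 152 FPKM in miR-1247, 21.1 and 142 FPKM in control, and 27.6 and 138 FPKM in E18 libraries.

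The 8 assembly factors had 3 higher and 1 lower in control RGCs, with a median log2 fold change of 0.32, and only Ndufaf3 kept its call without each library in turn. Ndufaf3, which acts early with Ndufaf4 on the peripheral arm and overlaps Impdh2, measured 19.2 and 20.9 FPKM in miR-1247, 20.6 and 18.7 FPKM in control, and 10.7 and 10.5 FPKM in E18 libraries. All 4 adult values were well above both E18 values, with a log2 fold change of 0.83 ± 0.106 for control (adjusted p = 0.000484). Its partner Ndufaf4 measured 13.5 and 11.3 FPKM in miR-1247, 15.2 and 15.5 FPKM in control, and 12.8 and 11.3 FPKM in E18 libraries, and narrowly missed the threshold in control (0.33 ± 0.131, adjusted p = 0.0601).

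Ndufaf5, which hydroxylates an arginine of Ndufs7, measured 14.7 and 19.7 FPKM in miR-1247, 17.1 and 19.2 FPKM in control, and 13.1 and 11.5 FPKM in E18 libraries. It rose by 0.53 ± 0.159 in control (adjusted p = 0.022), a call lost without control library 2 or either E18 library (adjusted p of 0.0574 to 0.126). Ndufaf8, the partner of Ndufaf5, is a low gene that overlaps Tepsin and measured 9.06 and 13.3 FPKM in miR-1247, 12.1 and 7.61 FPKM in control, and 6.10 and 1.26 FPKM in E18 libraries. The E18 libraries were far apart, and its log2 fold change of 1.40 ± 0.52 (adjusted p = 0.0469) was called with 1 of the 6 libraries left out and not with any other, where adjusted p ran from 0.0713 to 0.213. Ndufaf7, a methyltransferase acting early in assembly, measured 5.48 and 5.70 FPKM in miR-1247, 9.47 and 6.03 FPKM in control, and 12.2 and 11.9 FPKM in E18 libraries. It was lower in control by -0.60 ± 0.201 (adjusted p = 0.0326), and this call too was kept in only 1 of the 6 repeats, the others giving adjusted p of 0.0546 to 0.133.

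The last 3 assembly factors were not called. Ndufaf1, which builds the membrane arm, measured 8.78 and 7.85 FPKM in miR-1247, 7.81 and 13 FPKM in control, and 12.7 and 10.4 FPKM in E18 libraries (adjusted p = 0.548). Ndufaf2, a paralog of the subunit Ndufa12, measured 15.9 and 17.0 FPKM in miR-1247, 22.1 and 19.4 FPKM in control, and 20.0 and 33.9 FPKM in E18 libraries (adjusted p = 0.244), and without E18 library 1 the adjusted p was 0.0107. Ndufaf6, an early assembly factor, was the lowest Nduf gene, at 2.75 and 1.27 FPKM in miR-1247, 2.91 and 4.63 FPKM in control, and 2.28 and 3.35 FPKM in E18 libraries (adjusted p = 0.41). For each of these 3 the control libraries overlapped those of E18. Over all 8 assembly factors, 37.5% were higher and 12.5% lower in control, beside 29.8% and 40.2% of all tested genes.

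Ndufa4, a complex IV subunit in spite of its name, measured 160 and 145 FPKM in miR-1247, 145 and 144 FPKM in control, and 257 and 265 FPKM in E18 libraries. All adult values lay far below E18, and control was lower by -0.85 ± 0.0586 on the log2 scale (adjusted p = 2.63e-05). Of all 45 Nduf genes its level at E18 was the highest.

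In the second comparison, adult miR-1247 against adult control RGCs, few Nduf genes changed. In miR-1247 RGCs 4 accessory subunits were higher, Ndufa3, Ndufa6, Ndufa7 and Ndufb7, and 2 subunits were lower, Ndufs1 of the core and the accessory Ndufa10. The other 39 did not pass, among them all 8 assembly factors and Ndufa4. The Nduf shares of 8.89% higher and 4.44% lower stand beside 3.53% higher and 6.22% lower over all tested genes (9.75% called), and the median log2 fold change was 0.02 over the 45 genes and -0.03 over all genes. The sign of the Nduf median was not stable: it was -0.01 and -0.04 without miR-1247 library 1 and 2, -0.05 and -0.04 without control library 1 and 2, and -0.09 with equal totals. Both miR-1247 libraries lay above both control libraries for 10 Nduf genes and below them for 14, against 25.3% and 32.4% of all tested genes (57.7% not overlapping), and they overlapped for 21. None of the 6 calls held in every repeat with 1 library left out: these repeats gave 1 to 2 higher and 0 to 1 lower, and the count over all genes, 974, fell to between 121 and 242. In these same libraries all 17 RGC markers were lower in miR-1247 than in control, with summed levels of 2284 and 2262 FPKM against 3799 and 3733 FPKM. Whether that moves the Nduf values was not tested.

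**Figure D4:**
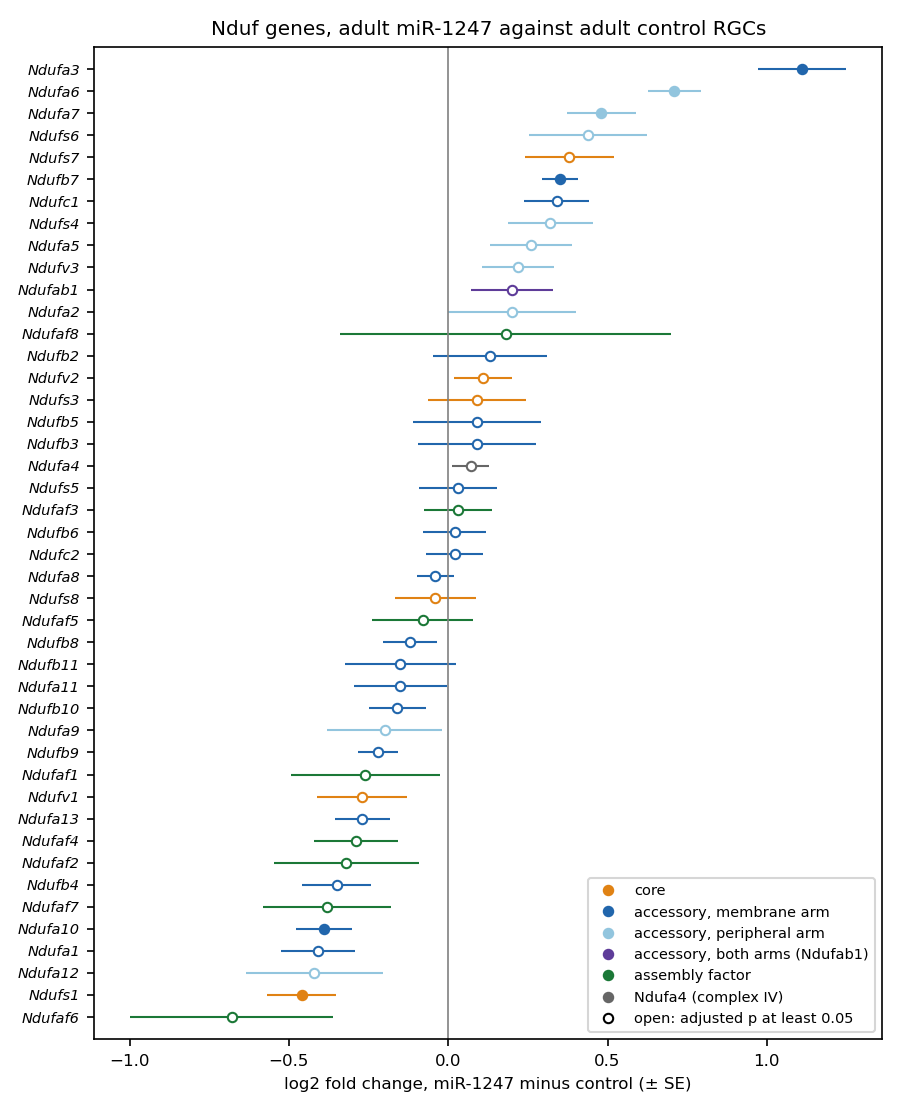
Log2 fold change of the Nduf genes, adult miR-1247 minus adult control on the log2(FPKM + 1) scale, with bars of 1 standard error from limma and filled points for the 6 genes called at an adjusted p of 0.05. Ndufa3 (1.11), Ndufa6 (0.71), Ndufa7 (0.48) and Ndufb7 (0.35) are the called genes right of 0, Ndufs1 (-0.46) and Ndufa10 (-0.39) are the called genes left of 0, and all other points are open.

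Ndufa3 had the largest difference, 34.9 and 29.6 FPKM in miR-1247 libraries against 15.1 and 13.7 FPKM in control libraries. The miR-1247 mean was 2.24 times the control mean, with a log2 fold change of 1.11 ± 0.139 (adjusted p = 0.0105). The libraries were well apart, but without miR-1247 library 1 or control library 2 the adjusted p was 0.0703 and 0.0594. The miR-1247 level stayed below that at E18, which was 74.9 and 59.2 FPKM. Ndufa6, a member of the LYR protein family that binds the acyl carrier protein in the peripheral arm (chr15:82234340-82238523, minus strand, GRCm39), measured 136 and 158 FPKM in miR-1247 libraries, against 86.6 and 92.2 FPKM in control libraries. It rose by 0.71 ± 0.083 (adjusted p = 0.00846) and lost its call only without control library 1, at an adjusted p of 0.0516. Its gene body overlaps that of Smdt1, a regulator of the mitochondrial calcium uniporter. In control libraries Ndufa6 was also higher than the 67.2 and 65.2 FPKM of E18, by 0.43 ± 0.083 (adjusted p = 0.00341).

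Ndufa7, a peripheral-arm subunit, measured 123 and 109 FPKM in miR-1247, 91.1 and 74.8 FPKM in control, and 68.0 and 72.4 FPKM in E18 libraries. It rose by 0.48 ± 0.108 in miR-1247 (adjusted p = 0.0421), while the control and E18 difference of 0.23 ± 0.108 was not called (adjusted p = 0.0945; without control library 2, 0.0204). Ndufb7 rose by 0.35 ± 0.0572 in miR-1247 (adjusted p = 0.0197). For both genes the miR-1247 libraries lay above the other 4, yet with any 1 library left out neither was called: adjusted p ran from 0.0516 to 0.178 for Ndufa7 and from 0.0521 to 0.101 for Ndufb7.

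The 2 lower genes were near the threshold. Ndufs1 fell by 0.46 on the log2 scale in miR-1247 libraries (SE 0.109, adjusted p = 0.0492). Ndufa10, a subunit related to nucleoside kinases on the matrix side of the membrane arm, measured 37.8 and 41.6 FPKM in miR-1247, 52.2 and 52.0 FPKM in control, and 36.7 and 32.9 FPKM in E18 libraries. It fell by 0.39 in miR-1247 (SE 0.0868, adjusted p = 0.0424) and was higher in control than at E18 by 0.57 ± 0.0868 (adjusted p = 0.00108). Neither fall was called with any 1 library left out, with adjusted p of 0.0927 to 0.183 for Ndufs1 and 0.069 to 0.169 for Ndufa10. Neither canonical 3′ UTR, of 932 bases in Ndufs1 and 6186 bases in Ndufa10, holds the 7 bases GGACGGG. Ndufaf3, which holds them, differed by 0.03 (adjusted p = 0.875). Only this exact run in canonical 3′ UTRs was searched for, so other forms of pairing are not covered. Whether pairing with the microRNA plays a part in the falls of Ndufs1 and Ndufa10 was not tested.

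Ndufa1 illustrates how close to the threshold this comparison sits. At 114 and 101 FPKM in miR-1247 libraries and 161 and 127 FPKM in control libraries, its log2 fold change was -0.41 ± 0.116 (adjusted p = 0.0722), and it was called without control library 2 (adjusted p = 0.0487). Ndufb4 (-0.35, adjusted p = 0.0879), Ndufa13 (-0.27, adjusted p = 0.102) and Ndufs7 (0.38, adjusted p = 0.134) had libraries that did not overlap and were not called. By class the medians were -0.04 for the core, 0.26 for the peripheral-arm and -0.04 for the membrane-arm accessory subunits, and -0.28 for the assembly factors. Of the 8 assembly factors 0 were called by limma (adjusted p between 0.197 and 0.875) and 0 had an unadjusted p below 0.05. Both miR-1247 libraries lay below both control libraries for 4 of them and above for 0. Over all tested genes these shares were 32.4% and 25.3% (57.7% not overlapping), and the difference was not tested. The 15 accessory subunits not named singly lay between -0.42 and 0.44. Of these, limma called 0, and 3 had an unadjusted p below 0.05 (Ndufb9, Ndufc1 and Ndufs4). Over all tested genes 9.75% were called, and the share at an unadjusted p below 0.05 was not counted.

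Adult miR-1247 RGCs were also set against E18. Here 19 Nduf genes were higher, 10 were lower and 16 were not called, against 28.4% higher and 41.5% lower over all tested genes (69.9% called), and the median log2 fold change was 0.03 over the 45 and -0.19 over all genes. Both miR-1247 libraries lay above both E18 libraries for 22 Nduf genes and below them for 15, against 35.9% and 50.4% of all tested genes (86.3% not overlapping). Without E18 library 2 the counts were 15 and 6. The Nduf median was 0.15 without miR-1247 library 2, 0.12 without E18 library 1, and 0.06 without miR-1247 library 1 or E18 library 2. This comparison and that of control with E18 share the E18 libraries, so their values are given side by side and not as separate evidence. Ndufb7 stood at 1.20 ± 0.0572 for miR-1247 over E18 (adjusted p = 5.26e-06) and 0.84 for control over E18, and Ndufa6 at 1.14 ± 0.083 and 0.43. Ndufa3 stood at -1.03 ± 0.139 (adjusted p = 0.000613) for miR-1247 over E18 and -2.13 for control over E18. For Ndufs1 the miR-1247 value of -1.10 ± 0.109 (adjusted p = 0.000146) was the larger fall of the pair, beside -0.64, and likewise for Ndufa1, at -1.16 ± 0.116 beside -0.75. Ndufs8, at 0.97 ± 0.128 beside 1.01, and Ndufa4, at -0.78 ± 0.0586 beside -0.85, were close in both.

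Complex I also needs 7 subunits made from mitochondrial DNA, which the authors' assembly placed on 3 loci: 6 of them share a locus with other mitochondrial genes and cannot be read singly, and mt-Nd6 has its own. The locus of mt-Nd1 and mt-Nd2, both core subunits of the membrane arm, measured 33062 and 61217 FPKM in miR-1247, 35797 and 12777 FPKM in control, and 5646 and 5693 FPKM in E18 libraries. The adult libraries of each group were far apart, and the log2 fold change was 1.92 ± 0.478 for control over E18 (adjusted p = 0.0104) and 1.07 ± 0.478 for miR-1247 over control (adjusted p = 0.197). The locus of 9 genes with mt-Nd3, mt-Nd4, mt-Nd4l and mt-Nd5, which also holds genes of complexes IV and V, behaved differently. It measured 8848 and 8921 FPKM in miR-1247, 2178 and 2238 FPKM in control, and 5869 and 5899 FPKM in E18 libraries, with little spread within a group. Its log2 fold change was -1.41 ± 0.0246 for control over E18 (adjusted p = 9.83e-08) and 2.01 ± 0.0246 for miR-1247 over control (adjusted p = 1.31e-07). The third locus, mt-Nd6, stood at 1297 and 1232 FPKM in miR-1247 and 1172 and 1205 FPKM in E18 libraries and was listed at 0 in both control libraries, as was mt-Cytb. A listed 0 in a gene that every cell uses may be a failed estimate, so no fold change is given, and values may be divided between mitochondrial loci differently in different groups. Mitochondrial entries took 12.9% and 19.1% of the listed FPKM in miR-1247, 10.4% and 4.43% in control, and 4.24% and 4.28% in E18 libraries. The median FPKM over tested genes was 13.15 and 13.12 in miR-1247, 13.56 and 13.55 in control, and 14.86 and 14.94 in E18 libraries. Within the adult groups this median thus did not follow the mitochondrial share. Whether the deposited values had already been scaled between libraries was not tested. With equal totals set without the mitochondrial entries the Nduf counts for control over E18 were 21 higher and 7 lower. Among all called genes 48.9% were then higher, in place of 42.6%.

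**Figure D5:**
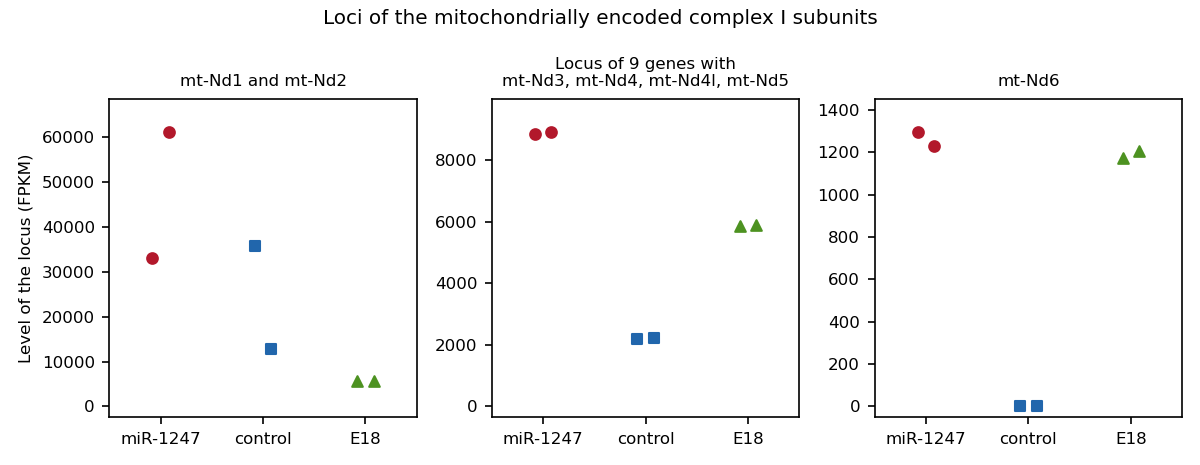
Level in FPKM, on a linear axis, of the 3 mitochondrial loci that hold complex I subunits, with a panel per locus, points for the 2 libraries of each group and miR-1247, control and E18 from left to right. The locus of 9 genes with mt-Nd3, mt-Nd4, mt-Nd4l and mt-Nd5 lies at 2178 and 2238 FPKM in control, below the other 4 libraries, and mt-Nd6 is listed at 0 in control.

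Nuclear genes of the other respiratory complexes give the setting for these counts. Of 43 nuclear subunits of complexes II to V, 13 were higher and 13 lower in control than at E18, and their summed level was 5473 and 5491 FPKM in miR-1247, 5341 and 5408 FPKM in control, and 5196 and 5295 FPKM in E18 libraries. Of 78 mitochondrial ribosomal proteins 21 were higher and 22 lower, with a median log2 fold change of -0.06. As shares, 30.2% higher and 30.2% lower of the 43 and 26.9% and 28.2% of the 78 stand beside 29.8% and 40.2% of all tested genes. Between miR-1247 and control, 1 of the 43 was higher and 3 were lower, and 4 of the 78 were higher. These are 2.33%, 6.98% and 5.13%, beside 3.53% higher and 6.22% lower over all tested genes. The Nduf genes had 18 higher and 11 lower, and 4 higher and 2 lower, in the same comparisons, and whether the lists differ was not tested. Within the Nduf genes the log2 fold changes of control over E18 had an SD of 0.704 across genes, against 1.28 across all tested genes.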

How the data were processed

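Poly-A RNA of 6 libraries, 2 per group, was analysed from a table of FPKM values deposited by the authors. The submitters' processing notes name HISAT2, Cufflinks, Cuffdiff and the mm39 build, without versions. The table has 11104 entries for 10361 names and 10889 loci. The 1e-05 found added to every deposited value was taken off. Loci of 1 name were summed, and names sharing a locus were taken once. The authors' deposited log2 ratios served only as a check: they differed from those recomputed by at most 0.00206. Depth is unknown, since the table holds no counts, so no counting interval can be given.

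The 9987 genes averaging 1 FPKM or more entered 1 model of 3 group means on log2(FPKM + 1) in limma 3.58.1 (R 4.3.3), with a variance trend, two-sided tests and Benjamini-Hochberg adjustment over all of them. The script was tested on simulated data. Exact 0 values may be failed estimates. The named library kit is not a stranded one, and the loci of 22 Nduf genes hold another coding gene. Some loci also hold genes outside the gene body of the Nduf gene. Examples are Ino80d for Ndufs1, Ptpmt1 for Ndufs3, Rnf113a1 for Ndufa1, and Nusap1 and Oip5 for Ndufaf1. Members and lists were chosen with earlier results of these data known. Values are given singly for the core subunits, the assembly factors, Ndufa4, the 5 accessory subunits with the highest and the 5 with the lowest fold change among those called in control against E18, and all subunits called in miR-1247 against control. A core subunit that is counted in the totals is not reported singly here. Accessory subunits named outside that rule, such as Ndufs4, were picked after their values were seen. Alternatives were other pseudocounts, filters and scalings, single loci, no variance trend, only the 4 libraries compared, a replicate block, and each library left out.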

Additional observations from a re-analysis of the deposited data

How the results depend on the processing

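No Nduf gene called in a comparison changed sign there in any refit. For control against E18, 18 genes were higher, and 15 to 18 with 1 library left out; 11 were lower, and 6 under median ratio scaling, 7 with equal totals without the mitochondrial entries, and 5 to 12 with 1 library left out. Among the 23 Nduf genes whose locus holds no other coding gene, a setting chosen after seeing the data, 8 were higher and 6 lower. For miR-1247 against control the 4 higher genes became 2 with equal totals, 2 with no variance trend, 2 among those 23 genes, and 1 to 2 with 1 library left out. The 2 lower genes became 1 with a pseudocount of 0.1, with no filter on low values, with each locus on its own and among those 23 genes, and 0 under median ratio scaling, under quantile normalization, with equal totals without the mitochondrial entries, with the replicate block, without a variance trend and when the 4 libraries compared were fitted alone. For miR-1247 against E18 the 19 higher genes became 8 among those 23 genes and 15 to 19 with 1 library left out, and the 10 lower became 5 and 6 to 11. Over all genes the 974 calls of miR-1247 against control became 343 without a variance trend and 347 when 4 libraries were fitted alone, and 584 with the replicate block; with equal totals 136 genes were higher and 777 lower, in place of 353 and 621. A smaller number of genes or libraries is part of some of these settings, and otherwise the cause was not tested. Libraries with the same number did not deviate together over all tested genes (correlations of -0.008, 0.004 and -0.002). A pairing that touches few genes could pass unseen in this check. The replicate block gave 18 and 11, 3 and 0, and 19 and 10 genes higher and lower in the 3 comparisons. A library left out leaves a group with 1 library, assumed to vary like the others. For single genes, 1530 values kept their side of the threshold, 138 lost and 11 gained a call, and 29 of genes not called moved to 0 or to the other sign. Depth is unknown and cannot be weighed.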

Other observations

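Complex I assembly factors that do not carry an Nduf name were read from a list of 12, of which 11 had an entry. In control RGCs 4 were higher than at E18 and 2 were lower. These are 36.4% and 18.2%, beside 29.8% higher and 40.2% lower over all tested genes. Timmdc1, which helps to build the membrane arm, measured 38.5 and 20.3 FPKM in miR-1247, 55.0 and 75.7 FPKM in control, and 14.6 and 25 FPKM in E18 libraries, with a log2 fold change of 1.70 ± 0.349 for control over E18 (limma, adjusted p = 0.00437). Tmem126b (0.55), Dmac2 (0.90) and Tmem70 (0.72) also rose. Acad9, an acyl-CoA dehydrogenase relative that acts with Ndufaf1, measured 19.8 and 24.1 FPKM in miR-1247, 15.6 and 13.5 FPKM in control, and 22.6 and 26 FPKM in E18 libraries, and fell by 0.70 on the log2 scale (SE 0.138, adjusted p = 0.00364). Nubpl, which delivers iron-sulfur clusters, was also lower (-0.92). Between miR-1247 and control limma called 0 of the 11, beside 9.75% of all tested genes, and 3 had an unadjusted p below 0.05 (Acad9, Ecsit and Timmdc1). The share of all tested genes at that unadjusted p was not counted, so the 3 are given as a description.

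Regulators of mitochondrial genes, 12 of a list of 14, had 4 higher and 5 lower in control RGCs than at E18. These shares, 33.3% and 41.7%, were close to the 29.8% higher and 40.2% lower of all tested genes. Ppargc1a, a coactivator of respiratory-chain genes, measured 10.6 and 9.45 FPKM in miR-1247, 9.18 and 9.4 FPKM in control, and 1.3 and 1.25 FPKM in E18 libraries, a log2 fold change of 2.18 ± 0.146 for control over E18 (limma, adjusted p = 2.24e-05). Its partner Esrra measured 22.9 and 23.6 FPKM in miR-1247, 24.9 and 23.5 FPKM in control, and 9.05 and 7.02 FPKM in E18 libraries (1.49 ± 0.132, adjusted p = 8.41e-05), and Ppargc1b (1.20) and Tfb2m (1.48) also rose. Nrf1 (-1.19), Gabpa (-0.59), Tfam (-0.84), Polrmt (-1.09) and Polg (-0.54) were lower. Between miR-1247 and control limma called 0 of the 12, beside 9.75% of all tested genes, and 0 had an unadjusted p below 0.05.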
